A study of Mus musculus with 25 samples.

Results

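The genes described are 9 genes of macrophages, the tissue phagocytes, as measured in mouse dorsal root ganglia: Aif1, Csf1r, Cd68, Cx3cr1, Itgam, Ptprc, Cd163, Mrc1 and Tyrobp. They were taken from the table by symbol, and all 9 of 9 were found among its 16220 genes and were among the 16152 with a mean of at least 10. The ganglia, which hold the cell bodies of sensory neurons, came from 25 BXD strains, recombinant inbred mice derived from crosses of C57BL6/J with DBA2/J. Each strain had 1 library from mice 8 weeks old, and no treatment is given in the labels. The strain names ended in TyJ for 16 strains and in RwwJ for 9, an ending that stands for the source of the line. How many animals a library holds, and of which sex, is not given in the sources used here. A difference between strains therefore holds genotype, animal, dissection and library together, and p-values measure the spread between single libraries.

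Macrophages reside in the ganglion among the neurons, glia and vessels, where they clear debris and multiply or are recruited after nerve injury. Their survival depends on the receptor CSF1R, and the transcription factor PU.1 drives much of their gene expression. Several of the 9 genes are not restricted to macrophages: Ptprc is made by all white blood cells, and Itgam and Tyrobp also by neutrophils and natural killer cells. In whole ganglia, fewer cells of a type and less RNA per cell cannot be told apart.

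Values are scaled counts, the read counts that the authors had brought to a common upper quartile. They summed to between 24637919 and 26860283 per library. From the step between low values, which was clear in 22 of 25 libraries, the depth was estimated at 20010000 to 40180000 reads, with a median of 23030000. Counting error made up 1.46% (Csf1r) to 7.77% (Aif1) of the variance of a macrophage gene between strains.

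Promoters of 4 of the genes are shown, since the levels of Itgam and Ptprc followed each other closely over the strains, Mrc1 followed Csf1r, and Cd163 followed none of the others. Each is the 250 bases before a RefSeq start site on GRCm38.p6, read on the gene's strand, with capitals marking GAGGAA or its reverse complement TTCCTC, the core letters of many PU.1 sites. The Itgam window was chr7:128062390-128062639 (plus strand), that of Ptprc chr1:138175306-138175555 (minus strand), that of Mrc1 chr2:14229164-14229413 (plus strand) and that of Cd163 chr6:124304401-124304650 (plus strand).
Itgam: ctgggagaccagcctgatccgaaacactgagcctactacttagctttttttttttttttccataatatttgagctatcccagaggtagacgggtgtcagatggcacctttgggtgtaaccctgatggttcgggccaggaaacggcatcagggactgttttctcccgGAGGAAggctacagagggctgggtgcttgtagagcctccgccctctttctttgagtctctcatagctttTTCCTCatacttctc
Ptprc: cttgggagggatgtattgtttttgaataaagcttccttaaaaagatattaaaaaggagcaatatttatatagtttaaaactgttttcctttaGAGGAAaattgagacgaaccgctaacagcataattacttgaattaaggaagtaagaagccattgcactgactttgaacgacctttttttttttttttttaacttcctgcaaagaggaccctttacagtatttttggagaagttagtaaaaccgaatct
Mrc1: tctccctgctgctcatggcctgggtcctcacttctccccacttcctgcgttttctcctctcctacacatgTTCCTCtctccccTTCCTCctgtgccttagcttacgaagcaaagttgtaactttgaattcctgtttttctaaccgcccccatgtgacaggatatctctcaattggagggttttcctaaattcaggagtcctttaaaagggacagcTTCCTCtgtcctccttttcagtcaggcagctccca
Cd163: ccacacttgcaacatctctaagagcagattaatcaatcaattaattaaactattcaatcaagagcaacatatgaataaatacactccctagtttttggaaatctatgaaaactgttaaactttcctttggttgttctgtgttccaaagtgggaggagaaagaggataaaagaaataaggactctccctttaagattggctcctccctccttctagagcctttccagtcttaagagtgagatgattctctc
The letters occurred 2 times in the Itgam window, 1 time in that of Ptprc, 3 times in that of Mrc1 and 0 times in that of Cd163. In the second RefSeq start of Ptprc they occurred 0 times. Over all 32851 promoter windows of this length, 23.3% held GAGGAA on either strand. The longer form AGAGGAAG, which contains GAGGAA, was in the Mrc1 window 1 time and in 3.67% of all windows. Of the other genes, Cd68 and Aif1 had 1 match to GAGGAA each and Cx3cr1 had 0. The Cd68 window also held the AP-1 letters TGACTCA, as the reverse complement TGAGTCA, 2 times, against 4.46% of all windows with any match. CACGTG, an E-box, was in 6.02% of all windows and in 0 of those of the macrophage genes. A match is a description of the letters and not a measured binding site.

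The first comparison asked how far the level of each macrophage gene differed between strains. The receptors for the growth factors and chemokines that macrophages respond to come first. Csf1r (ENSMUSG00000024621, chromosome 18), the receptor for CSF1 and IL34, was at 657 scaled counts in its lowest strain, BXD60, at a median of 1071 and at 1627 in its highest, BXD1. Its mean was 1064 ± 276 (SD, n = 25). Cx3cr1 (ENSMUSG00000052336, chromosome 9), the receptor for the neuronal chemokine fractalkine, was at 76 in BXD60, at a median of 214 and at 599 in BXD1. BXD1 stood above the next strain for Cx3cr1, BXD15 at 379, and the highest level was 7.88 times the lowest.

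The scavenger receptors came next. Mrc1 (ENSMUSG00000026712, chromosome 2), the mannose receptor CD206, ran from 266 in BXD60 through a median of 440 to 667 in BXD55, with BXD1 next at 664. Cd163 (ENSMUSG00000008845, chromosome 6), the receptor that takes up hemoglobin bound to haptoglobin, ran from 104 in BXD13 through a median of 219 to 429 in BXD89, with BXD5 next at 426. Neither of the strains highest for Cd163 was highest for any other of the genes. BXD89 nevertheless ranked 3 for Csf1r, 4 for Cd68 and 5 for Mrc1, while BXD5 ranked 8, 7 and 8. BXD13, lowest for Cd163, ranked 22 for Csf1r, 18 for Cd68 and 23 for Mrc1. BXD1 ranked 16 of 25 for Cd163.

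The markers of the cell body followed. Aif1 (ENSMUSG00000024397, chromosome 17), which encodes the actin-binding protein IBA1 used to stain macrophages, ran from 47 in BXD60 through a median of 113 to 222 in BXD1. Cd68 (ENSMUSG00000018774, chromosome 11), a lysosomal glycoprotein, ran from 84 in BXD16 through a median of 169 to 281 in BXD15. For Cd68 the 4 highest strains lay close together, with BXD1 at 269, BXD55 at 267 and BXD89 at 265.

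The genes shared with other white blood cells were the last group, and BXD14 stood high for them. Itgam (ENSMUSG00000030786, chromosome 7), the integrin chain CD11b, ran from 121 in BXD44 through a median of 243 to 611 in BXD40, and BXD14 was next at 513. Ptprc (ENSMUSG00000026395, chromosome 1), the phosphatase CD45, ran from 126 in BXD44 through a median of 229 to 606 in BXD1, and BXD14 was again next at 472. Tyrobp (ENSMUSG00000030579, chromosome 7), the signalling adaptor DAP12, ran from 235 in BXD16 through a median of 489 to 968 in BXD1. BXD14 ranked 2 for Itgam and for Ptprc and 6 for Tyrobp, yet 20 for Csf1r, 21 for Mrc1 and 24 for Cx3cr1.

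**Figure D1:**
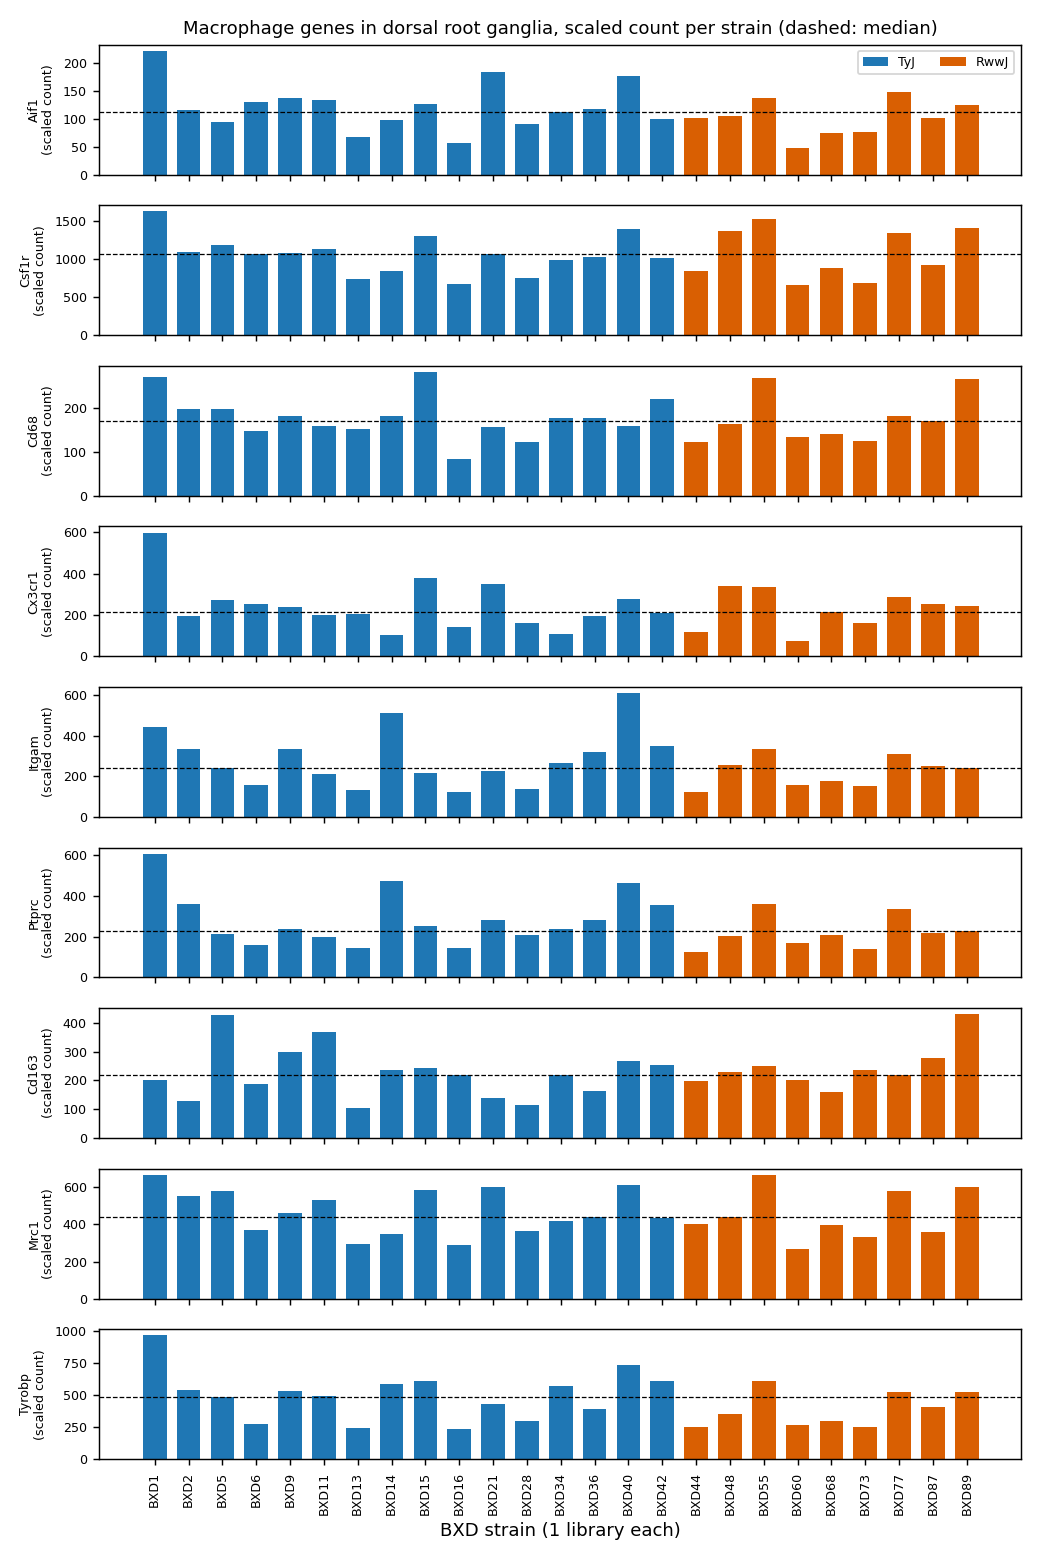
Scaled count of each macrophage gene (vertical axes, from 0) in each of the 25 BXD strains (horizontal axis, 1 library each), with TyJ strains in blue, RwwJ strains in orange and the median as a dashed line. BXD1 has the highest bar for Csf1r (1627), Cx3cr1 (599), Aif1 (222), Ptprc (606) and Tyrobp (968), and BXD14 stands high for Itgam (513) and Ptprc (472) but low for Cx3cr1 (105).

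A few strains stood high or low for most of the genes. BXD1 was among the 5 highest strains for 8 of the 9 genes, BXD55 for 7 and BXD40 for 6. BXD16 was among the 5 lowest for 8 of the genes, BXD13 and BXD73 for 7 and BXD60 for 6. As a measure of spread, the 90th percentile over strains was divided by the 10th. This ratio was at least 2 for 7 of the 9 genes, against 23.9% of all genes tested. It was 3.05 for Cx3cr1, 3.02 for Itgam and 2.91 for Ptprc, and Csf1r and Mrc1 fell just under the threshold with 1.98 each. Cd68, with 2.15, was the nearest gene above it. The median ratio was 2.43 for the macrophage genes and 1.5 for all genes. The SD on the log2 scale had a median of 0.516 against 0.246.

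Levels of different genes were compared as scaled counts per kb of the longest coding transcript. Tyrobp was highest with 817 ± 320 (SD, n = 25) per kb, above Csf1r with 226 ± 58.7 in 25 of 25 strains. Csf1r was above Cd68, with 144 ± 41.1 per kb, in 25 of 25 strains. Cd68 and Aif1, with 132 ± 45.8 per kb, did not separate, since Cd68 was higher in 16 of 25 strains. Aif1 was above Mrc1, with 86.4 ± 23.0 per kb, in 25 of 25 strains, and Mrc1 above Itgam in 23. Itgam (56.6 ± 26.4 per kb), Cx3cr1 (52.7 ± 24.5), Ptprc (52.0 ± 23.4) and Cd163 (51.9 ± 18.8) overlapped, and the order of neighbours among them held in 10, 16 and 12 of 25 strains. Several places in this order depended on the length used. Per kb of all exons of a gene joined, a length chosen after seeing the data, Ptprc was at 14.4 ± 6.48 (SD, n = 25) and below Cd163 in 25 of 25 strains. On that length Aif1 was at 75.2 ± 26.2 per kb, below Cd68 in 25 of 25 strains, and did not separate from Mrc1, at 72.9 ± 19.4, which it exceeded in 13 of 25 strains.

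The tissue was also checked against other macrophage genes. Of 23 listed genes of resident macrophages, 22 were in the table, and none of those was at 0 in any strain. Their summed level ran from 8318 in BXD16 to 24903 in BXD1. The neuronal list, 6 of 6 in the table, summed to between 249108 and 354441.

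The second comparison asked whether the RwwJ and TyJ strains differed in these genes. Csf1r was at 667, 1070 and 1627 (lowest, median, highest) in TyJ and at 657, 917 and 1525 in RwwJ. Tyrobp was at 235, 512 and 968 in TyJ and at 252, 353 and 610 in RwwJ. Ptprc was at 144, 246 and 606 in TyJ and at 126, 207 and 358 in RwwJ. For each of the 3 genes the ranges of the groups overlapped, and the highest strain was a TyJ strain.

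In limma's test, 0 of the 9 genes differed at an adjusted p (Benjamini-Hochberg over all genes) under 0.05, and 0.0% of all genes did. At an unadjusted p under 0.05, 0 of the 9 passed against 15.1% of all genes, and the rank-sum permutation test also called 0 of the 9 (0.0% of all genes), with 0 at an unadjusted p under 0.05 against 13.8% of all genes. The difference, RwwJ minus TyJ on the log2 scale, was -0.34 ± 0.22 (SE) for Tyrobp (limma adjusted p = 0.443) and -0.34 ± 0.23 for Ptprc (adjusted p = 0.458). It was -0.30 ± 0.25 for Itgam, -0.26 ± 0.20 for Aif1 and -0.02 ± 0.15 for Csf1r. Cd163 had the opposite sign, 0.18 ± 0.21. The mean was lower in RwwJ for 8 of the 9 genes, where 51.2% of all genes had a lower mean. This direction did not hold throughout: with the neutrophil score as a term, Csf1r, Cd68, Itgam and Mrc1 had the opposite sign. So did Csf1r and Cx3cr1 without BXD60. That score had r = 0.96 with Itgam and so held most of its variance. The sign of Itgam under the term therefore shows nothing about its direction.

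**Figure D2:**
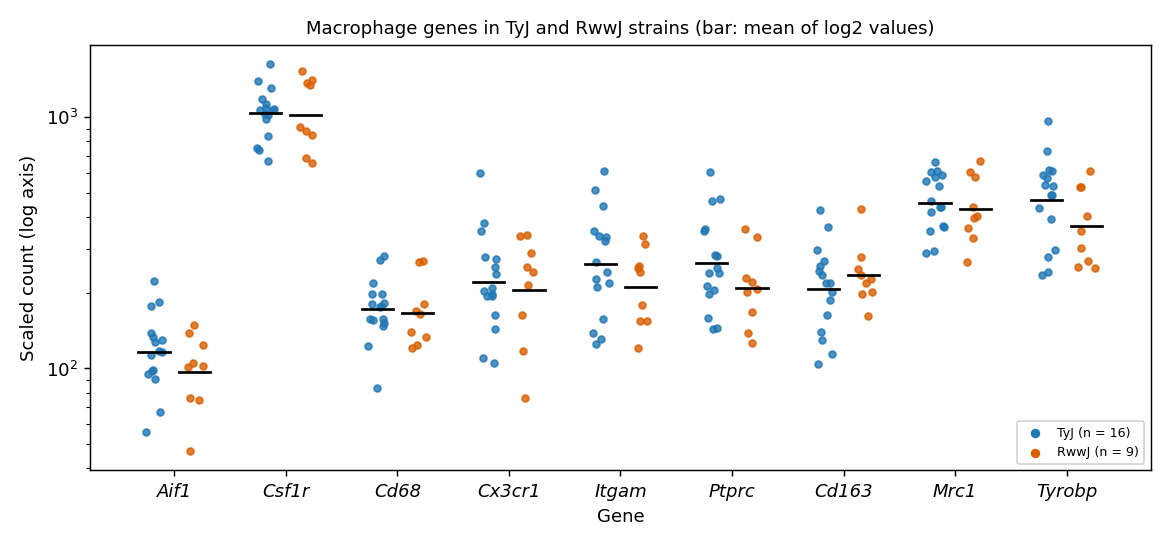
Scaled count (log axis) of each macrophage gene in the TyJ (blue, n = 16) and RwwJ (orange, n = 9) strains, 1 point per strain, with a bar at the mean of the log2 values. The points of the groups overlap for every gene, and the bars lie closest for Csf1r (difference -0.02).

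The third comparison asked which of the macrophage genes were high in the same strains. Most were: Pearson's r over the 25 strains on log2(scaled count + 1) was above 0 for 36 of 36 pairs, and 26 pairs had a permutation adjusted p under 0.05 over the 270 correlations computed. The genes fell into sets that followed each other to different degrees, with Cd163 apart from the rest. These sets were read from the correlations themselves and have no test of their own.

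Csf1r, Mrc1 and Aif1 followed each other most closely among the genes of tissue macrophages. Csf1r and Mrc1 had r = 0.91 and rho = 0.92, and both were low in BXD16 and BXD60 and high in BXD1 and BXD55. Aif1 had r = 0.84 with Mrc1 and 0.83 with Csf1r. Without BXD16 and BXD60, the strains farthest from the median of Csf1r, r of Csf1r and Mrc1 was 0.88. Cx3cr1 had r = 0.79 with Csf1r, and Cd68 had 0.78. Each r with Csf1r just named had a permutation adjusted p of 5.4e-05, which rests on the smallest p the permutations can give, 1e-05.

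Itgam, Ptprc and Tyrobp formed the other close set. Itgam and Ptprc had r = 0.92 and rho = 0.92 (permutation adjusted p = 5.4e-05), and 0.90 without BXD14 and BXD40. Tyrobp had r = 0.89 with Ptprc and 0.88 with Itgam. Tyrobp also followed the first set, with r = 0.80 for Cd68, 0.79 for Mrc1 and 0.78 for Csf1r. The correlations of Itgam with Csf1r (r = 0.64) and of Ptprc with Csf1r (r = 0.62) were lower. Both pairs within the close sets held inside each strain group: Itgam and Ptprc had r = 0.91 in TyJ and 0.94 in RwwJ, and Csf1r and Mrc1 had 0.91 and 0.93.

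In fits of all genes on the level of 1 macrophage gene (limma, adjusted p under 0.05 over the other 16151 genes), a gene was called when its slope was positive. With Csf1r, 13.6% of all genes were called and 7 of the other 8 macrophage genes. With Mrc1 the share of all genes was 15%, with Aif1 16.8%, with Tyrobp 16.9% and with Cd68 10.3%, and 7 of 8 were called in each. With Itgam it was 11.7% and with Ptprc 12.1%, and 6 of 8 were called in each. With Cx3cr1 only 0.285% of all genes were called, and 3 of 8: Aif1, Csf1r and Mrc1. Of 72 ordered pairs 50 were called, against 10.8% of all genes over the 9 fits, and 24 of 36 pairs were called in both directions. The count was 30 in the TyJ strains alone (4.26% of all genes) and 17 in the RwwJ strains alone (0.709%).

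Cd163 was called with none of the other macrophage genes, in either direction, and 0.0371% of all genes were called with it. Its r ran from 0.08 with Ptprc to 0.40 with Csf1r and Tyrobp. In the fit with Csf1r, Cd163 had an adjusted p of 0.11 (limma) and an unadjusted p of 0.039. Genes nearest to Cd163 were Id1, an inhibitor of helix-loop-helix transcription factors (r = 0.81), and Prodh, proline dehydrogenase (r = 0.78). Mertk, a receptor for dying cells on the resident macrophage list, had r = 0.70 with Cd163 and -0.02 with Csf1r. F13a1, a clotting factor chain made by tissue macrophages, had r = 0.70 with Cd163 and 0.78 with Csf1r. Neither Mertk nor F13a1 was called with Cd163. F13a1 had the highest r with Cd163 of the 13 perivascular macrophage genes, whose median was 0.22 with 0 called. Lyve1 (0.52), Stab1 (0.51) and Cbr2 (0.46) came next. Folr2 (0.02), Cd209f (-0.01), Timd4 (-0.05) and Clec10a (-0.08) were at the low end. The Cd163 window printed above lacked the GAGGAA letters, and so did those of Cx3cr1 and of the second Ptprc start. Over all windows 23.3% held them, and a link of these letters to the levels was not tested.

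**Figure D3:**
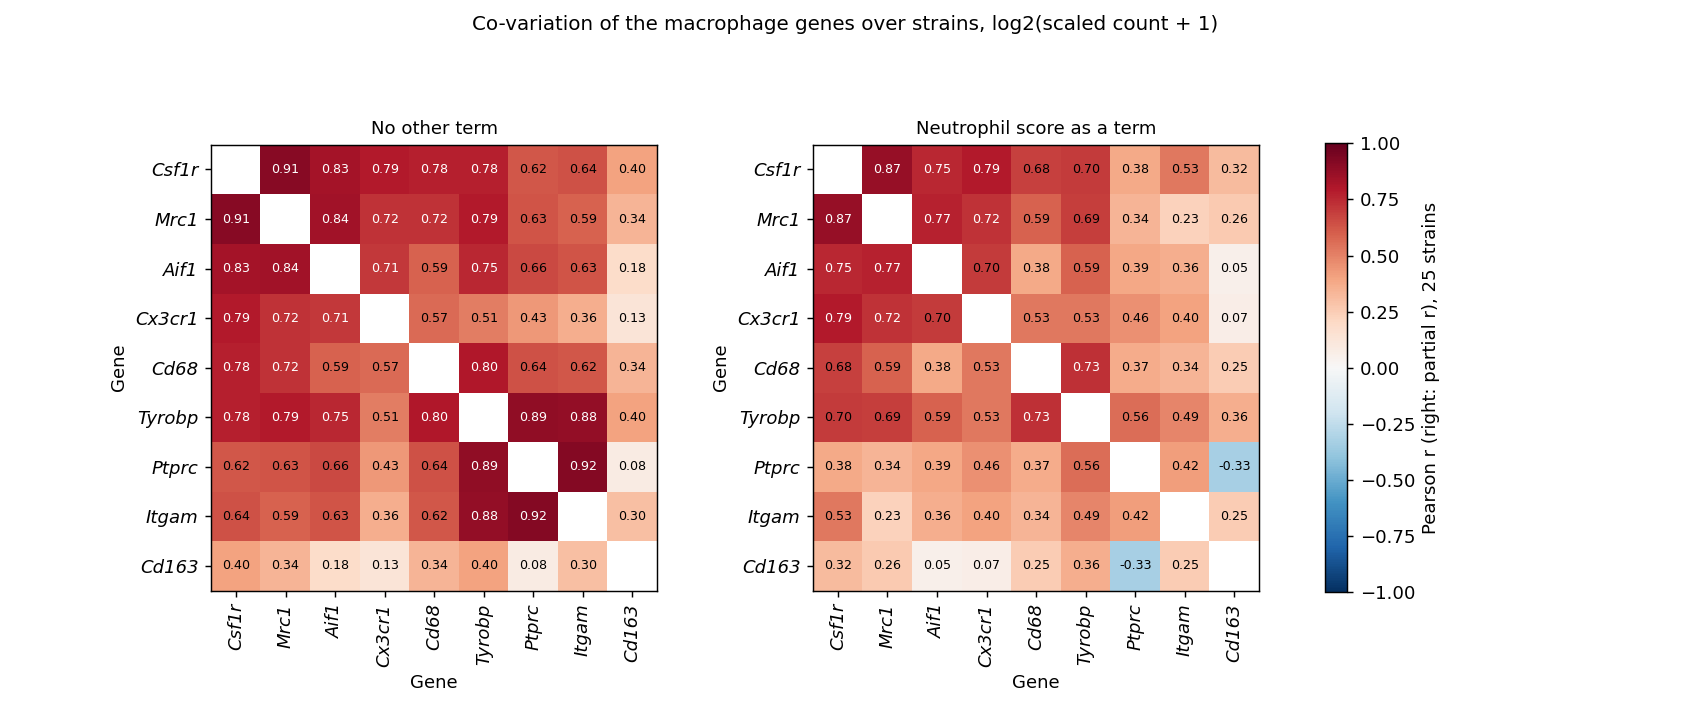
Pearson r between the macrophage genes over 25 strains, without another term (left) and as partial r with the neutrophil score as a term (right), on a colour scale from -1 to 1. On the left Csf1r and Mrc1 (0.91) and Itgam and Ptprc (0.92) are the darkest pairs, and on the right Csf1r and Mrc1 stand at 0.87 and Itgam and Ptprc at 0.42.

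Cx3cr1 was not called with Itgam (r = 0.36) or Ptprc (r = 0.43). For Cx3cr1 and Itgam, r was 0.15 in the TyJ strains and 0.85 in the RwwJ strains. The slope of Cx3cr1 on Itgam differed between the groups at an unadjusted p of 0.0211 and an adjusted p of 1 (limma). Of all genes, 0.0% had a called difference of slope on Itgam. The TyJ strain BXD14, with 513 scaled counts of Itgam and 105 of Cx3cr1, lay far from the others in this pair, and without it r was 0.54.

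The genes outside the 9 that lay nearest to each differed between the sets. Those nearest to Csf1r were C1qa and C1qc, chains of complement C1q that macrophages secrete (r = 0.91 each). Near to Cx3cr1 was Gstm7, a glutathione transferase (0.83). Those nearest to Mrc1 were Kdelr1, a retrieval receptor of the secretory pathway (0.91), and Cmtm3 (0.89). Dbi, a binding protein for acyl-CoA (0.92), and Anapc13, a subunit of the anaphase-promoting complex (0.91), were nearest to Aif1. Cyba, a subunit of the phagocyte oxidase, and Crtap, a collagen-modifying protein of the endoplasmic reticulum, were nearest to Cd68 (0.88 each).

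Itgam stood nearest to Ngp and Ltf, which encode granule proteins of neutrophils (r = 0.96 each). Ptprc stood near to Rac2, a small GTPase of white blood cells (0.95). Tyrobp stood nearest to Lyz2, the lysozyme of myeloid cells (0.97), and Arhgdib (0.94). By the median of the 9 correlations, the genes most like the whole group were Fcer1g, an adaptor of Fc receptors (0.84), Pik3cg (0.82), Fcgr2b (0.81), Pld4 (0.81), Fcgr3 (0.80), Nrros (0.80), Laptm5 (0.80) and C1qa (0.80). Serp1, Inpp5d, C3ar1, Lyl1, Adgre1, Cotl1 and Ptpn18 followed with 0.79 each. At the other end were Inpp5j (-0.79), Camk2g (-0.76), Dgkq, Ube2o and Ache (-0.75 each), of which Ache encodes acetylcholinesterase.

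Among the genes that work with the macrophage genes, several partners and transcription factors were called with them. Csf1 (385 to 757 scaled counts) had r = 0.31 with Csf1r, and Il34 (747 to 1210) had 0.14, and neither was called. Cx3cl1, the ligand of CX3CR1, had r = 0.20 with Cx3cr1 and was not called with it. With Csf1r it had r = 0.42 (permutation adjusted p = 0.049) and was not called in the limma fit. It ran from 159 in BXD87 to 1440 in BXD48. BXD48 was also highest for the sum of 7 spinal cord genes, at 11212 scaled counts against a median of 454. The spinal cord score, the mean log2 level of these genes, had r = 0.46 with Csf1r (permutation adjusted p = 0.039). The part of spinal cord tissue in the levels of Cx3cl1 and Csf1r was not tested. Spi1, which encodes PU.1, had r = 0.92 with Ptprc and with Tyrobp, 0.89 with Itgam, 0.75 with Csf1r and 0.23 with Cd163. Irf8, another transcription factor of myeloid cells, was called with Csf1r (0.71), Itgam (0.84) and Tyrobp (0.85) and not with Cd163 (0.25). Of 14 genes of the CSF1R pathway, 8 were called with Csf1r and 8 with Itgam.

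Itgb2, the CD18 chain that pairs with CD11b, had r = 0.95 with Itgam and 0.59 with Csf1r. Of the 5 integrin partners 4 were called with Itgam, the exception being Icam1 (0.32), a ligand of the integrin, which was called with Csf1r (0.52), Cd68 (0.78), Mrc1 (0.54) and Tyrobp (0.65). Of 9 genes that signal through or beside DAP12, 9 were called with Tyrobp, 9 with Itgam and 6 with Csf1r. Among them Syk, the kinase that binds DAP12, had r = 0.89 with Itgam and 0.49 with Csf1r, and Trem2, a receptor that signals through DAP12, had 0.53 and 0.76.

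Of the 22 resident macrophage genes tested, 20 were called with Csf1r, 19 with Itgam, 4 with Cx3cr1 and 0 with Cd163. The shares of all genes called were 13.6%, 11.7%, 0.285% and 0.0371%, so few genes of any kind were called with Cx3cr1 or Cd163. The median r of the list was 0.80 with Csf1r, 0.70 with Itgam and 0.38 with Cd163, against 0.02, 0.02 and -0.01 over all genes. The 3 C1q genes had a median r of 0.91 with Csf1r, 0.66 with Itgam and 0.51 with Cd163. Their score had r = 0.54 with Cd163 (permutation adjusted p = 0.012), and the resident macrophage score had 0.42 (permutation adjusted p = 0.062). Of 13 genes of perivascular macrophages 6 were called with Csf1r. These included Stab1 (r = 0.80), a scavenger receptor, and Cbr2 (0.69), while Lyve1 (0.28) and Folr2 (0.34) were not called with Csf1r. With Cd68, 10 of the 13 were called (10.3% of all genes), among them Lyve1 (0.52) and Folr2 (0.65). With Itgam 5 were called (11.7%). Of 7 microglial genes 5 were called with Csf1r and 2 with Itgam.

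**Figure D4:**
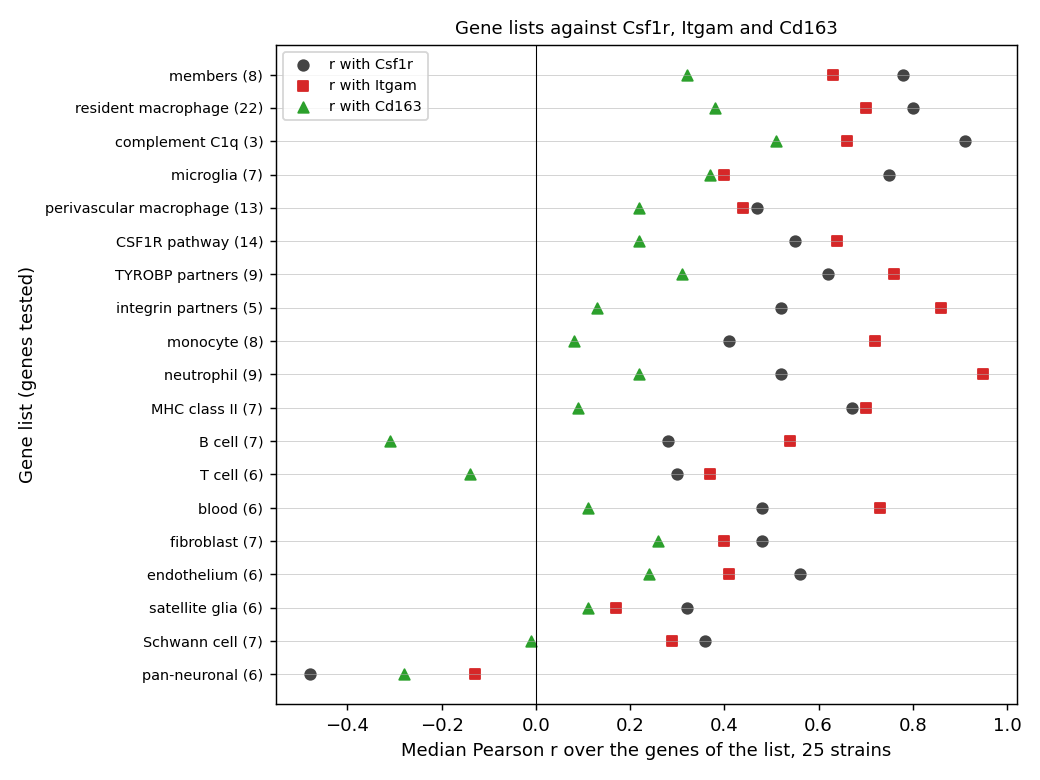
Median Pearson r over the genes of each list (vertical axis, number of genes tested in brackets) with Csf1r (circles), Itgam (squares) and Cd163 (triangles), over 25 strains. The C1q list lies at 0.91 for Csf1r and 0.66 for Itgam, the neutrophil list at 0.52 and 0.95, and the triangles lie left of the other symbols for both lists.

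Genes of neutrophils, and to varying degrees of some other blood cells, moved with Itgam, Ptprc and Tyrobp. The neutrophil list, S100a8, S100a9, Mpo, Elane, Ngp, Camp, Ltf, Retnlg and Mmp8, had 9 of 9 genes in the table, none at 0 in any strain. Its summed level ran from 1866 to 20365 scaled counts in TyJ and from 1859 to 9451 in RwwJ. The highest strain was BXD14 and the lowest BXD44, the strain lowest for Itgam and Ptprc. S100a8, a calcium-binding protein abundant in neutrophils, was at 3884 in BXD14, 4030 in BXD40 and 345 in BXD44.

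The neutrophil score, the mean log2 level of the list, had r = 0.96 with Itgam, 0.90 with Ptprc and 0.83 with Tyrobp (permutation adjusted p = 5.4e-05 for each). With Csf1r it had r = 0.54 (permutation adjusted p = 0.012), with Mrc1 0.56, with Cd68 0.57 and with Aif1 0.58. With Cx3cr1 it had 0.27 and with Cd163 0.24, neither under 0.05 after adjustment. All 9 neutrophil genes were called with Itgam and 8 with Csf1r. Of 8 monocyte genes 5 were called with Itgam and 3 with Csf1r, and Ly6c2 had r = 0.92 with Itgam and 0.56 with Csf1r. Of 7 B cell genes 5 were called with Itgam and 0 with Csf1r. Of 6 T cell genes 1 was called with Itgam, 3 with Ptprc and 2 with Tyrobp, against 11.7%, 12.1% and 16.9% of all genes. The T cell score had r = 0.80 with Itgam and 0.83 with Ptprc, and the dendritic cell score had 0.79 and 0.89. Of 6 dendritic cell genes 3 were called with Itgam, 3 with Ptprc and 4 with Tyrobp, while Flt3 was called in the negative direction with each. The blood score, of 6 genes, had r = 0.82 with Itgam, 0.78 with Ptprc and 0.60 with Csf1r, and 0.79 with the neutrophil score.

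**Figure D5:**
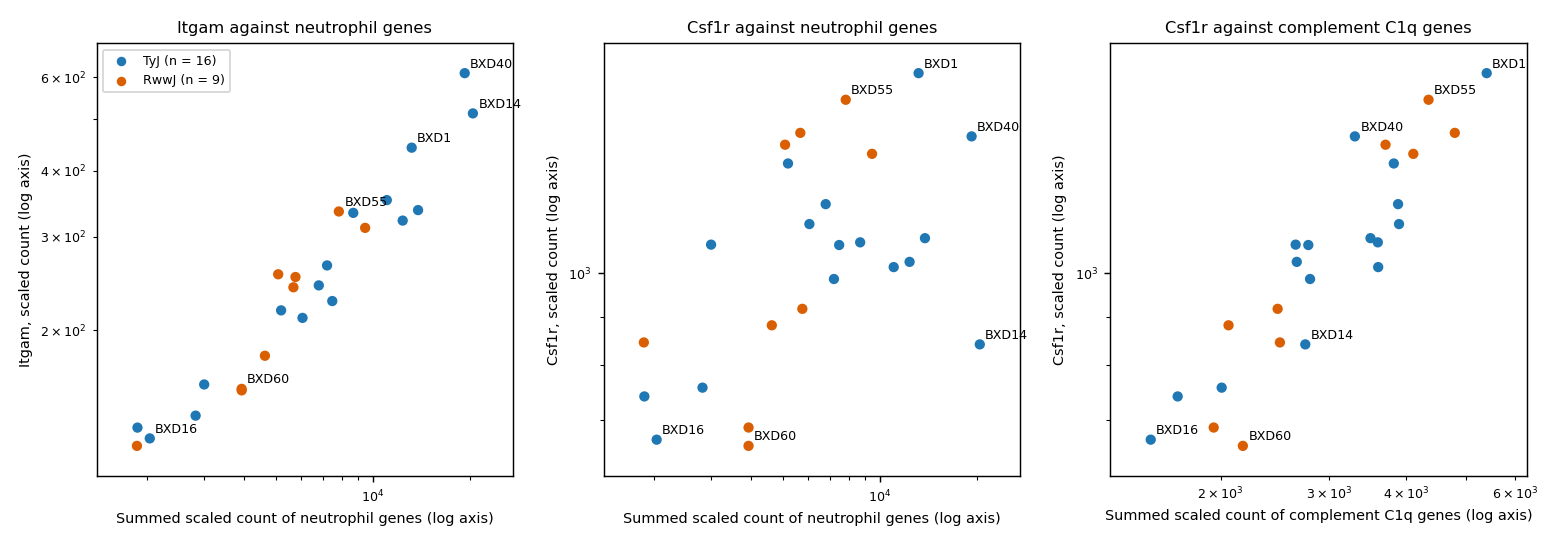
Each point is 1 of 25 strains (TyJ blue, RwwJ orange), on log axes: Itgam and Csf1r scaled counts against the summed scaled count of 9 neutrophil genes, and Csf1r against that of 3 C1q genes. Itgam rises with the neutrophil sum (r of the scores 0.96), whereas BXD14, highest for that sum at 20365, is low for Csf1r (841), and Csf1r follows the C1q genes (0.91).

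The fits were repeated with the neutrophil score as a term, an alternative chosen after the values were seen. The ordered pairs called then numbered 25 instead of 50 (2.87% of all genes over the 9 fits). With Itgam, 0 of 8 macrophage genes were called instead of 6 (0.0% of all genes), and with Ptprc 0 instead of 6 (0.223%). The score had r = 0.96 with Itgam and 0.90 with Ptprc, and so held most of the variance of those genes. These counts of 0 were therefore largely set by the term and show nothing about their pairs. With Csf1r and with Mrc1, 5 were called instead of 7 (4.90% and 4.82%), and with Tyrobp 5 instead of 7 (6.41%). The genes called with Tyrobp were Cd68 (partial r 0.73), Csf1r (0.70), Mrc1 (0.69), Aif1 (0.59) and Ptprc (0.56). The call of Ptprc was at a limma adjusted p of 0.049, and Tyrobp was not called in the fit with Ptprc (adjusted p = 0.18). Itgam was not called with Tyrobp (partial r 0.49, limma adjusted p = 0.13). With Aif1 4 were called (5.68%) and with Cd68 3 (3.62%), each instead of 7. Cx3cr1 had 3 in both fits (0.192%), and Cd163 had 0 in both (0.031%). The partial r was 0.87 for Csf1r and Mrc1 and 0.79 for Csf1r and Cx3cr1, and 0.42 for Itgam and Ptprc.

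With the level of Csf1r as a term instead, also chosen after the values were seen, 3 pairs were called. These were Itgam and Ptprc (partial r 0.87), Ptprc and Tyrobp (0.82) and Itgam and Tyrobp (0.78). The share of all genes called was 1.91% with Itgam, 2.93% with Ptprc and 2.60% with Tyrobp. Beside Csf1r, 0 of the macrophage genes were called with Aif1 (0.00619% of all genes), Cd68 (0.241%), Cd163 (0.0557%), Cx3cr1 or Mrc1 (0.0% each). This term is itself one of the macrophage genes, with r = 0.91 with Mrc1, 0.83 with Aif1, 0.79 with Cx3cr1 and 0.78 with Cd68. With Itgam (0.64) and Ptprc (0.62) its r was lower. Which pairs lost their calls was therefore largely set by the term, and these counts do not test the sets. The part of blood cells in the levels of Itgam, Ptprc and Tyrobp was not tested.

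Other cells of the ganglion moved with some of the genes. The fibroblast score had r = 0.85 with Cd68, 0.70 with Tyrobp, 0.67 with Mrc1, 0.65 with Csf1r and 0.39 with Itgam. Its 7 genes summed to between 73761 and 188805 in TyJ and between 72540 and 187187 in RwwJ, with none at 0. The endothelium score, of 6 genes that were never at 0, had r = 0.73 with Tyrobp, 0.70 with Cd68 and 0.59 with Csf1r. Its genes summed to between 2173 and 5668 in TyJ and between 2133 and 4078 in RwwJ. The adipose score, of 5 genes with none at 0, had r = 0.62 with Mrc1, and its genes summed to between 405 and 5616 in TyJ and between 678 and 4131 in RwwJ. The neuronal score had r = -0.56 with Cd68, -0.53 with Csf1r and -0.21 with Itgam. The satellite glia score had r = 0.57 with Csf1r and with Aif1, and 0.07 with Cd68. With the fibroblast score as a term the ordered pairs called numbered 33 (7.98% of all genes), and with the neuronal score 49 (14%). The part of these cells in the co-variation was not tested.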

How the data were processed

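Dorsal root ganglion RNA of 25 strains was extracted with Trizol and made into libraries with a TruSeq v2 kit, per the labels' protocols. The submitters' processing notes list the tools CASAVA 1.8.0, TopHat2 2.0.9 and HTSeq and the builds NCBIM37 and mm9. The deposited values are a normalized score: whole numbers that look like rounded read counts which the authors had set to 1 upper quartile (1478 to 1478.25 in every library). The scaling tool is not given in the sources used here. No count model was fitted to them. The kit does not mark strand, so overlapping and antisense genes cannot be told apart.

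Symbols came from the GENCODE M21 annotation of GRCm38 (15697 identifiers had an entry and 523 did not), transcript lengths from the same release, and promoters from RefSeq on GRCm38.p6, which held 7 of the 9 genes. Identifiers of the table were matched by name only. No library was a copy of another, since the closest pair had a chi-square of 13.1 per gene.

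Values were tested as log2(scaled count + 1) over 16152 genes, those whose mean was 10 or more. Fold changes on that scale understate changes of low genes. Groups were compared, and co-variation fitted, with limma 3.58.1 (trended prior, two-sided, Benjamini-Hochberg at 0.05) in R 4.3.3. Correlations had 100000 two-sided permutations each, adjusted over 270 correlations. The scripts were tested on simulated data. Alternatives were other pseudocounts, filters, scalings and weights, each strain group alone, scores of other tissues as terms, and leaving out libraries.

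The 9 genes, the gene lists and the tests were chosen with earlier results of these data known. Named beside the 9 genes were the 2 genes with the highest r for each, the 15 with the highest and 5 with the lowest median r, and genes of the lists. A few genes that this rule names are not reported here. S100a8 was named as a marker of which cells a strain holds.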

Additional observations from a re-analysis of the deposited data

Results flagged for a closer look

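Within the RwwJ strains, Cd163 in BXD89, at 429 scaled counts, lay apart from the other 8 strains. Its gap to the nearest strain was 0.567 of the group's range, above the 95% critical value of Dixon's test for 9 samples. On the log2 scale used for the other tests the gap was 0.447 of the range, which is below that value. About 1 in 20 groups would be set apart in this way by chance, and the other 8 macrophage genes had no such strain in RwwJ. In TyJ, which has too many strains for this test, BXD5 was at 426.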

How the results depend on the processing

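Under each alternative run for it, 0 of the 9 genes differed between RwwJ and TyJ. The 50 ordered pairs called (10.8% of all genes) became 30 in the TyJ strains only (4.26%) and 17 in the RwwJ strains only (0.709%). They numbered 25 with the neutrophil score as a term (2.87%), 33 with the fibroblast score (7.98%) and 45 to 52 with 1 library left out. With the blood score they numbered 26, a count without a background, since the share of all genes is not given here. Fewer samples were in the fits of 1 group, and otherwise the cause was not tested. Genes called with Csf1r, 4017 in both directions, became 578 in the RwwJ strains only, 1180 with the blood score, 1339 with the neutrophil score, 6298 with the neuronal score, 2453 without BXD1, BXD14 and BXD40, and 3090 to 4742 with 1 library left out. The number of genes with a percentile ratio of at least 2 was 7 to 8 with 1 library left out.

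Values near 0 changed sign, and so did the larger RwwJ minus TyJ difference of Itgam (-0.30 without another term). The neutrophil score, under which Itgam changed sign, had r = 0.96 with Itgam. The correlation of Ptprc and Cd163 was -0.07 with the blood score, -0.33 with the neutrophil score, -0.01 with the neuronal score, -0.05 with the fibroblast score and -0.03 (without BXD13) to 0.15 with 1 library left out. The RwwJ minus TyJ difference of Csf1r was 0.10 with the neutrophil score, 0.04 without BXD1, BXD14 and BXD40, and -0.09 to 0.06 (without BXD60) with 1 library left out. In the same order, that of Cd68 was 0.08, 0.00 and -0.13 to 0.01 (without BXD44). That of Cx3cr1 was -0.20 to 0.07 (without BXD60) with 1 library left out, that of Itgam 0.03 with the neutrophil score, and that of Mrc1 0.04 with the neutrophil score and -0.16 to 0.00 (without BXD60) with 1 library left out. The call of Cx3cr1 in the fit with Cd68 was lost without BXD1 (r = 0.50). That of Mrc1 in the fit with Cx3cr1 was lost without BXD60 (r = 0.66). Per kb of joined exons the levels of Aif1 and Ptprc fell to 75.2 and 14.4. Under the other scalings, 36 of 36 pairs kept their sign and call. The terms neutrophil, neuronal and fibroblast score and the leaving out of 3 libraries together were chosen after seeing the data. No paired analysis was possible because the labels give no replicate numbers and each strain has 1 library. One library per strain limits all precision, and counting error adds up to 7.77% of the variance.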
